A study of Mus musculus with 4 samples.

Results

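The clustered histone genes are the rows of the deposited expression table whose gene names begin with Hist1h, Hist2h, Hist3h or Hist4h. There were 61 such genes among 24637 in the table, 55 encoding core histones (15 H2A, 15 H2B, 12 H3 and 13 H4) and 6 encoding the linker histone H1. By cluster, 49 belonged to Hist1 on chromosome 13, 8 to Hist2 on chromosome 3, 3 to Hist3 on chromosome 11 and 1 to Hist4 on chromosome 6. Expression was measured by sequencing of messenger RNA captured on poly-T beads, in 2 WT (Taf4+/+) and 2 Taf4a-/- (Taf4-/-) libraries. All were made from mouse embryonic stem cells (ESCs) grown for 5 days as embryoid bodies and then for 9 days on gelatin-coated plates, a protocol for cardiomyocyte differentiation, and the comparison asks how loss of Taf4, a subunit of the general transcription factor TFIID, alters gene expression in it. Per the study's methods, the lines were derived from blastocysts of crosses between Taf4a+/- mice, with 2 null and 2 WT lines, and the loss of the gene is therefore constitutive. The p-values below measure the spread between these libraries.

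Core histones form the nucleosome, around which DNA is wrapped, and H1 binds the linker DNA between nucleosomes. Most clustered histone genes are transcribed in S phase, lack introns, and give mRNAs that end in a conserved stem-loop instead of a poly(A) tail. The stem-loop is bound by Slbp, and U7 snRNP directs cleavage just after it. Some of these genes also give polyadenylated transcripts that read past the stem-loop, and replacement histones such as H3.3 and H1.0 are encoded by solitary genes with polyadenylated mRNAs. Libraries of poly-T captured RNA thus hold only part of the histone mRNA of a cell, and the counts below are counts of that part.

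The stem-loop was searched for in the NCBIM37 genome in the 300 bases after the stop codon of each gene. For the 3 annotated pseudogenes, which have no coding sequence, the whole gene was searched. A match was found for 56 of 61 genes, including the pseudogene Hist2h3c2-ps. In genes with a stop codon it lay 21 to 58 bases after it (median 31). No match was found for Hist2h2be, Hist2h2bb, Hist1h2an and the annotated pseudogenes Hist1h2aj and Hist3h2bb-ps. There were 8 distinct 16-base sequences, of which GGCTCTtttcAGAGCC was held by 35 genes, and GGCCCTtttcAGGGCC by 8 genes that all encode H4. The sequences of 6 of the genes tested below are shown as 30-base windows. They run 5′ to 3′ on the strand of the gene, with the arms of the stem in capitals.
Hist1h1c: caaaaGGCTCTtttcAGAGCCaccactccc
Hist1h2bc: ccaaaGGCTCTtttcAGAGCCacccacttt
Hist3h2a: ccaaaGGCTCTtttcAGAGCCacccacaac
Hist3h2ba: ccaaaGGCTCTtttcAGAGCCaccttccaa
Hist1h4i: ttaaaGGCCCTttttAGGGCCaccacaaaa
Hist1h4h: ccaaaGGCCCTtttcAGGGCCgcccacatt
These windows lie in NCBIM37 at chr13:23831376-23831405 for Hist1h1c, chr13:23776511-23776540 for Hist1h2bc, chr11:58768669-58768698 for Hist3h2a and chr11:58762846-58762875 for Hist3h2ba, all on the plus strand. The Hist1h4i window is at chr13:22132826-22132855 on the minus strand and the Hist1h4h window at chr13:23623322-23623351 on the plus strand. The window of Hist3h2ba, the gene with a fall in the Taf4a-/- libraries, holds the same 16-base stem-loop as those of Hist1h1c, Hist1h2bc and Hist3h2a, which rose.

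The 4 libraries had between 21732746 and 27733034 reads on genes, and the deposited values are counts divided by a size factor per library. The targeted gene, Taf4a, was counted at 889 and 678 in WT and 1722 and 1799 in the libraries labelled Taf4a-/- (log2 fold change 1.18, standard error 0.16, limma adjusted p = 0.00569). The gene-level count therefore does not check the labels, since it covers the whole gene and not the deleted part alone. The 12 cardiomyocyte markers were all lower in the Taf4a-/- libraries, with sums of 25257 and 28988 in WT against 2052 and 2381, and 10 of 12 pluripotency markers were higher, with sums of 6154 and 3226 against 18823 and 21017. All 10 macrophage markers were lower (sums 12526 and 15709 against 267 and 408, with C1qa at 0 in both Taf4a-/- libraries). All 10 visceral endoderm and liver markers were lower too (sums 58628 and 52523 against 401 and 398, with Alb and Serpina1a at 0 in both), as were 8 of 10 fibroblast markers, with sums of 517192 and 735286 against 185216 and 205283. Markers of several cell types thus differed between the genotypes, and their part in the values below was not tested. In these bulk samples, more cells of a type and more RNA per cell cannot be told apart.

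Counts of the clustered histone genes were higher in the Taf4a-/- libraries. The 61 genes summed to 1635 and 1853 normalized counts in the WT libraries (replicate 1, then 2, here and below) and to 5960 and 7276 in Taf4a-/-, a ratio of the means of 3.80. This was 0.00672% and 0.00727% of all reads on genes in WT, and 0.0251% and 0.0303% in Taf4a-/-. The ratio was similar for both kinds of histone. The core genes had sums of 807 and 711 in WT and 2572 and 3036 in Taf4a-/- (758.6 ± 67.8 and 2804 ± 328, SD, n = 2), a log2 ratio of 1.89. For the linker genes the sums were 828 and 1142 in WT and 3388 and 4240 in Taf4a-/- (985 ± 222 and 3814 ± 603, SD, n = 2), a log2 ratio of 1.95. The genotypes did not overlap in either sum, and a sum over genes was not tested. The ratio of linker to core counts was 1.03 and 1.61 in WT and 1.32 and 1.40 in Taf4a-/-, so its Taf4a-/- values lay between those of the WT libraries.

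Each of the 5 histone proteins had a higher sum in both Taf4a-/- libraries than in either WT library. H2A genes had sums of 188 and 128 in WT and 641 and 697 in Taf4a-/- (ratio 4.23), and H2B genes 502 and 471 against 1335 and 1712 (ratio 3.13). The H3 genes had the lowest sums, 40.3 and 42.6 in WT and 268 and 217 in Taf4a-/-, and the highest ratio, 5.85. H4 genes had 75.4 and 69.6 in WT and 327 and 410 in Taf4a-/- (ratio 5.08). The differences between these ratios were not tested. A leading gene held a large share of each sum, namely Hist1h1c for H1 (97.01% of the WT and 94.7% of the Taf4a-/- counts), Hist3h2a for H2A (76.4% and 72.2%), Hist1h2bc for H2B (54.2% and 75.9%), Hist2h3c1 for H3 (45.9% and 47.6%) and Hist1h4i for H4 (79.6% and 75.2%). The H1 sum without Hist1h1c was 23.7 and 35.3 in WT and 186 and 219 in Taf4a-/- (log2 ratio 2.78), and the core sum without Hist1h2bc had a log2 ratio of 1.73.

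**Figure D1:**
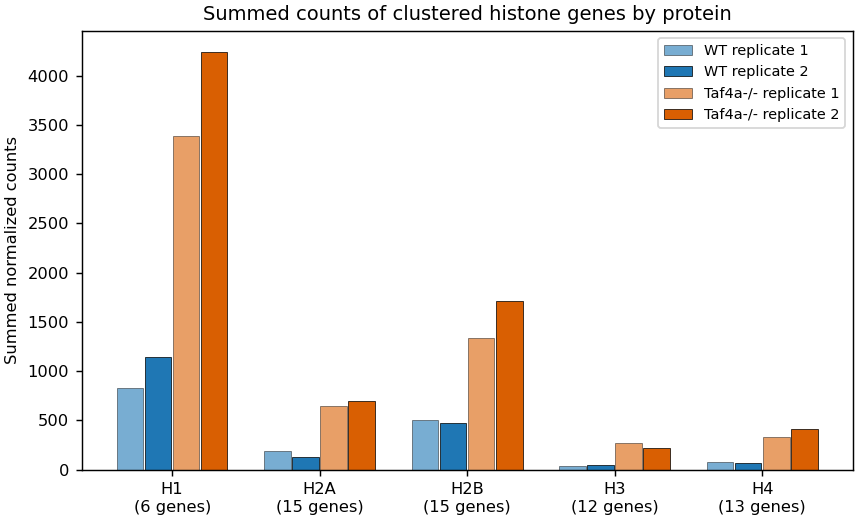
Summed normalized counts of the clustered histone genes (vertical axis, from 0) for each histone protein, with a bar for each of the 4 libraries. Both Taf4a-/- bars are above both WT bars for every protein, from 268 and 217 against 40.3 and 42.6 for H3 to 3388 and 4240 against 828 and 1142 for H1.

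By cluster, the Hist1 genes had sums of 1227 and 1566 in WT and 5049 and 6396 in Taf4a-/- (ratio 4.10), and the Hist2 genes 126 and 111 against 400 and 341 (ratio 3.12). The Hist3 cluster had the smallest ratio, 2.26, with sums of 281 and 176 in WT and 501 and 530 in Taf4a-/-, and it holds the genes Hist3h2a and Hist3h2ba, which moved in opposite directions. Hist4h4, the only gene of its cluster, had no read in either WT library and 9 reads in each Taf4a-/- library (8.81 and 9.95 normalized counts). Against a floor of 3 reads over the WT group the ratio was 6.55, a value that takes the Taf4a-/- reads as exact. The lower end of the 95% counting interval of its ratio was 4.80, and this bound covers counting error only.

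Each gene was compared by limma, a linear model that shares the spread between genes, after adding 1 to the normalized counts and taking log2, which shrinks the fold changes of scarce transcripts. The test covered the 16926 genes that averaged 10 or more normalized counts over the 4 libraries, and calls were made where the Benjamini-Hochberg adjusted p was under 0.05. Of the 61 clustered histone genes, 17 reached that mean and 44 were below it. Among the 17, 15 were called higher in Taf4a-/- and 1 (Hist3h2ba) lower, against 11.3% of all genes tested called higher and 17.3% called lower (28.6% in either direction). Quantile normalization shifted the median over all genes from -0.01 to 0.11 in log2 fold change, and with it 2676 genes were higher and 2448 lower in place of 1906 and 2928, and 15 histone genes were still higher. Of 13 core genes 12 were higher and 1 was lower, and of 4 linker genes 3 were higher and none was lower. The median log2 fold change of the 17 genes was 2.24, beside -0.01 over all genes tested. However, 9 of the 17 reached the mean of 10 through the Taf4a-/- libraries, with a WT mean under 10, and had to differ in that direction. They were Hist1h1e, Hist1h1a, Hist1h2ac, Hist1h2ai, Hist1h2ae, Hist1h2be, Hist1h2bg, Hist1h3d and Hist1h4h. Of the 8 genes with a WT mean of at least 10, 7 were higher and 1 was lower, with a median of 2.06, beside -0.03 over the 16459 genes with such a WT mean. Leaving out a library left 1 sample in a genotype. Calls of the histone genes then rose or fell with the library, as did calls over all genes. No log2 fold change of the 17 genes changed sign among those still tested.

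**Figure D2:**
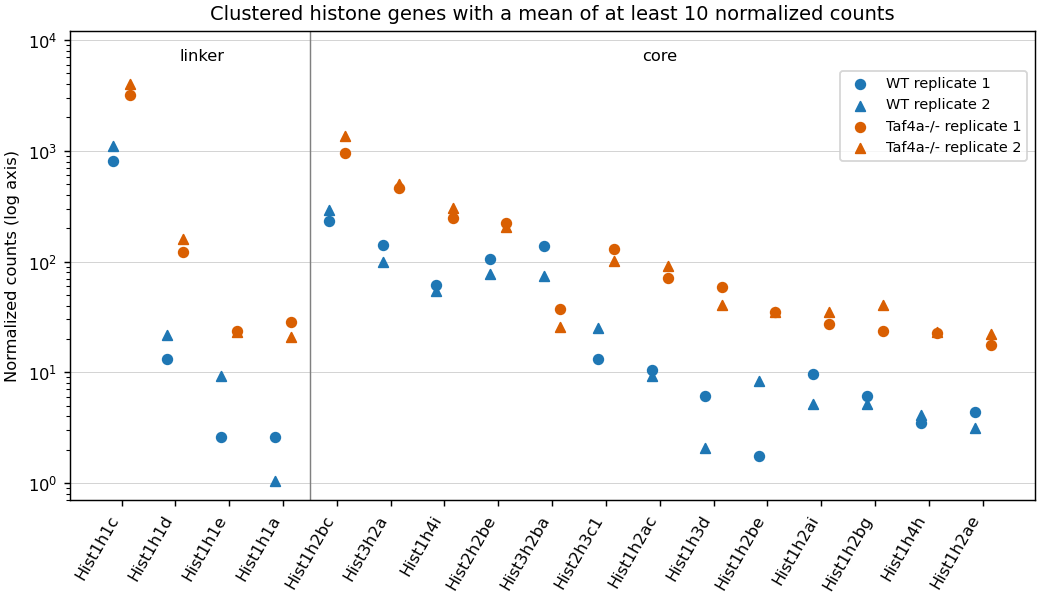
Normalized counts (vertical log axis) of the 17 genes that were tested, with a point for each library, linker genes to the left of the line and core genes to the right. Both Taf4a-/- points are above both WT points for all genes but Hist3h2ba, where they are below, at 37.2 and 25.4 against 139 and 73.8. The 9 genes with a WT mean under 10 were tested only through the Taf4a-/- libraries and had to differ in that direction.

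Among the linker genes, Hist1h1c had most of the counts. It encodes the somatic subtype H1.2, and the gene (ENSMUSG00000036181) is a single exon at chr13:23830676-23832235. Its normalized counts were 805 and 1107 in WT and 3202 and 4021 in Taf4a-/-, between 49.2% and 59.7% of all clustered histone counts of a library. Both Taf4a-/- values were at least 2.89-fold above either WT value, and the WT values differed from each other by 1.37-fold. The log2 fold change was 1.93 (standard error 0.19, limma adjusted p = 0.00263).

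Hist1h1d encodes the subtype H1.3 (chr13:23646901-23650721). It had 13.2 and 21.8 normalized counts in WT and 121 and 158 in Taf4a-/-, with no overlap, and rose by 2.96 on the log2 scale (standard error 0.38, limma adjusted p = 0.00466). Hist1h1a, which encodes H1.1, had 2.63 and 1.04 normalized counts in WT, or at most 3 reads a library, and 28.4 and 21.0 in Taf4a-/- (log2 fold change 3.22, limma adjusted p = 0.0126). Hist1h1e, which encodes H1.4, had 2.63 and 9.35 in WT and 23.5 and 23.2 in Taf4a-/-. Its WT values were 3.56-fold apart, and it did not pass the threshold with a log2 fold change of 1.99 (95% interval 0.46 to 3.53, limma adjusted p = 0.0601). Without WT replicate 2, Hist1h1e was called (2.75, limma adjusted p = 0.0433), and without WT replicate 1 it was not (1.23, limma adjusted p = 0.0972). The remaining H1 genes were low. Hist1h1b, encoding H1.5, had 3.51 and 3.12 in WT and 10.8 and 11.1 in Taf4a-/-, and the testis-specific Hist1h1t had 0 to 1.75 in WT and 1.96 to 5.53 in Taf4a-/-.

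H1f0, a solitary gene for the replacement linker histone H1.0, moved the other way. It had 4055 and 3171 normalized counts in WT and 1803 and 1666 in Taf4a-/- (log2 fold change -1.05, standard error 0.15, limma adjusted p = 0.0065). Per kilobase of annotated exon, the level of Hist1h1c divided by that of H1f0 was 0.0679 and 0.119 in WT and 0.608 and 0.826 in Taf4a-/-. The mRNAs of these genes differ in polyadenylation, and so this is not a ratio of the proteins.

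Among H2B genes, Hist1h2bc was the most counted (ENSMUSG00000018102, chr13:23776068-23784357, 2 exons). Its normalized counts were 234 and 293 in WT and 964 and 1349 in Taf4a-/-, and the lowest Taf4a-/- value was 3.29-fold above the highest WT value. It rose by 2.12 on the log2 scale (standard error 0.22, limma adjusted p = 0.00269). The annotated transcript is spliced from the gene body to a distal exon, and the intron takes out the stem-loop shown above.

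Hist2h2be, an H2B gene without a stem-loop match (chr3:96025044-96027661), had 105 and 76.9 normalized counts in WT and 224 and 204 in Taf4a-/-. This was the smallest rise among the genes called (log2 fold change 1.24, standard error 0.26, limma adjusted p = 0.0191), and it was not called when WT replicate 2 or either Taf4a-/- library was left out (adjusted p from 0.0522 to 0.0869 in limma). Hist1h2be had 1.75 and 8.31 in WT and 35.2 and 35.4 in Taf4a-/- (log2 fold change 2.84, limma adjusted p = 0.0271). It overlaps Gm11398 on the same strand, which had 2.63 and 7.27 in WT and 57.8 and 58.6 in Taf4a-/-. How reads of the overlap were counted was not examined. Hist1h2bg had 6.14 and 5.20 in WT and 23.5 and 40.9 in Taf4a-/- (log2 fold change 2.27, limma adjusted p = 0.0218). For Hist1h2be, leaving out WT replicate 1 gave a log2 fold change of 1.96, and leaving out WT replicate 2 gave 3.72. Hist1h2be lost its call without a variance trend in the model (limma adjusted p = 0.0579) and without Taf4a-/- replicate 1 or 2 (limma adjusted p = 0.0571 and 0.0576), as did Hist1h2bg without WT replicate 2 (0.0744) or Taf4a-/- replicate 2 (0.134).

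Hist3h2ba, an H2B gene of the Hist3 cluster (ENSMUSG00000056895, chr11:58762413-58763032), was the exception. It had 139 and 73.8 normalized counts in WT and 37.2 and 25.4 in Taf4a-/-, and thus both Taf4a-/- values were below both WT values. The WT values were 1.88-fold apart, and the highest Taf4a-/- value was 0.504 of the lowest WT value. The log2 fold change was -1.68 (standard error 0.42, limma adjusted p = 0.0311). The call was lost without WT replicate 1 (-1.23, limma adjusted p = 0.0961) or Taf4a-/- replicate 2 (-1.42, limma adjusted p = 0.0842). It also missed the threshold after quantile normalization, at -1.34 (limma adjusted p = 0.0529), and without a variance trend (limma adjusted p = 0.0623), and the sign was kept in each of these.

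Hist3h2a, in the same cluster and on the same strand (ENSMUSG00000078851, chr11:58768187-58770176), encodes an H2A. It had 142 and 99.7 normalized counts in WT, close to those of Hist3h2ba, and 461 and 504 in Taf4a-/-. This was a rise of 2.01 on the log2 scale (standard error 0.24, limma adjusted p = 0.00378), with intervals of 1.44 to 2.58 for Hist3h2a and -2.70 to -0.67 for Hist3h2ba. Hist3h2a overlaps Trim17 on the same strand, which had 1.75 and 5.20 in WT and 37.2 and 40.9 in Taf4a-/-, fewer than Hist3h2a in every library.

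The other H2A genes tested had few WT reads. Hist1h2ac had 10.5 and 9.35 normalized counts in WT and 70.5 and 90.7 in Taf4a-/- (log2 fold change 2.89, standard error 0.37, limma adjusted p = 0.00482). Hist1h2ai had 9.64 and 5.20 in WT and 27.4 and 35.4 in Taf4a-/- (log2 fold change 1.99, limma adjusted p = 0.0309). Hist1h2ae had 4.38 and 3.12 in WT and 17.6 and 22.1 in Taf4a-/- (log2 fold change 2.14, limma adjusted p = 0.0277). All were separated between genotypes, as were 30.0% of all genes in this direction. Each had a WT mean under 10, so it was tested only through the Taf4a-/- libraries and had to be higher there. In Hist1h2ac and the other genes just named the WT values rest on 3 to 12 reads a library. Hist1h2ai was not called without WT replicate 2 or either Taf4a-/- library (limma adjusted p from 0.0744 to 0.142), and Hist1h2ae was not called without WT replicate 2 (adjusted p = 0.0731) and was under the mean of 10 when either Taf4a-/- library was left out. Hist1h2ac overlaps an annotated 5S_rRNA gene on the same strand, which had 3.12 to 6.14 normalized counts in WT and 9.79 to 15.5 in Taf4a-/-.

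H3 and H4 genes were each led by a gene with a rise. Hist2h3c1, an H3 gene (chr3:96049477-96052431), had 13.2 and 24.9 normalized counts in WT and 130 and 101 in Taf4a-/- (log2 fold change 2.59, standard error 0.41, limma adjusted p = 0.00867). It overlaps Hist2h2aa1 on the same strand, an H2A gene that was not found in the expression table. Whether reads of that overlap are in the Hist2h3c1 counts was not examined. Hist1h3d had 6.14 and 2.08 in WT and 58.7 and 40.9 in Taf4a-/-, a log2 fold change of 3.42 (95% interval 2.02 to 4.81, limma adjusted p = 0.0102). Leaving out WT replicate 1 gave 4.02, and leaving out WT replicate 2 gave 2.81. Hist1h4i, an H4 gene on the minus strand (ENSMUSG00000060639, chr13:22132685-22133221), had 61.4 and 54.0 in WT and 247 and 307 in Taf4a-/-. This was a log2 fold change of 2.24 (standard error 0.25, limma adjusted p = 0.00334), with WT values that differed by 1.14-fold. Hist1h4h had 3.51 and 4.16 in WT and 22.5 and 23.2 in Taf4a-/- (log2 fold change 2.31, limma adjusted p = 0.0194). In these H3 and H4 genes no Taf4a-/- value overlapped a WT value, and 30.0% of all genes had Taf4a-/- values above WT without overlap. Hist1h3d and Hist1h4h had WT means under 10, so they were tested only through the Taf4a-/- libraries and had to be higher there. Hist1h4h was not called without WT replicate 2 or either Taf4a-/- library (limma adjusted p from 0.0505 to 0.0887).

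**Figure D3:**
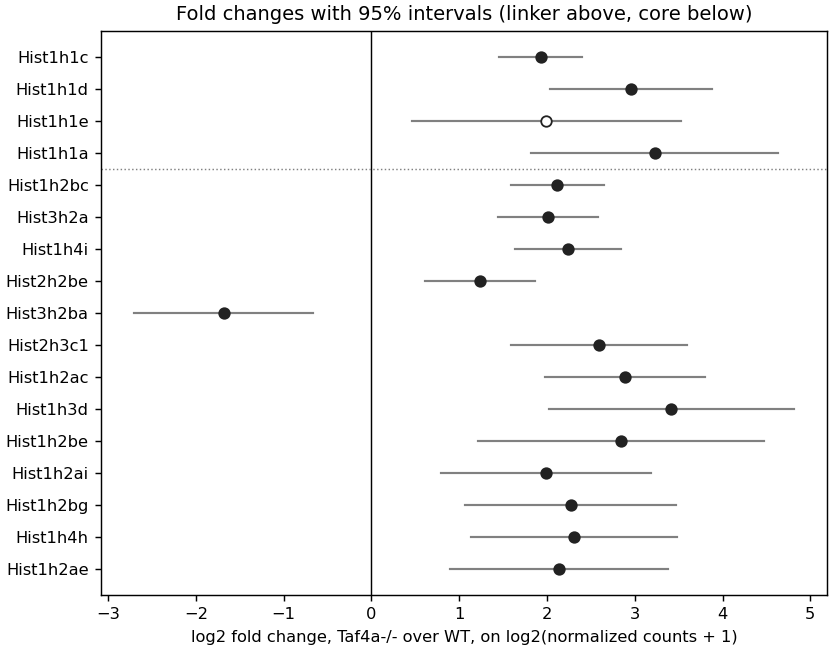
Log2 fold change of each of the 17 genes, Taf4a-/- over WT, on log2(normalized counts + 1) (horizontal axis), with 95% intervals from limma, filled points for genes called and an open point for Hist1h1e. The points lie between 1.24 and 3.42 except Hist3h2ba at -1.68.

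The 44 genes with a mean under 10 normalized counts are marked as low, and none was tested. They were Hist1h1b and Hist1h1t for H1, and Hist1h2ad, Hist2h2ac, Hist1h2ag, Hist1h2ab, Hist1h2ak, Hist1h2ah, Hist1h2af, Hist1h2aj, Hist2h2aa2, Hist1h2aa and Hist1h2an for H2A. For H2B they were Hist1h2bj, Hist1h2bp, Hist1h2bm, Hist1h2bf, Hist1h2bb, Hist1h2bn, Hist1h2bk, Hist1h2bh, Hist2h2bb and Hist3h2bb-ps. The low H3 genes were Hist1h3e, Hist2h3c2-ps, Hist1h3c, Hist1h3i, Hist1h3a, Hist1h3g, Hist1h3f, Hist1h3b, Hist1h3h and Hist2h3b. Low H4 genes were Hist2h4, Hist1h4d, Hist1h4j, Hist1h4k, Hist4h4, Hist1h4a, Hist1h4n, Hist1h4c, Hist1h4f, Hist1h4m and Hist1h4b. Their means over the libraries ranged from 0.276 to 9.71, with 9 and 19 of them at 0 in WT replicates 1 and 2 and 5 at 0 in each Taf4a-/- library. In 27 of the 44 both Taf4a-/- values were above both WT values, beside 20.0% of all genes with a mean above 0 and under 10, and in 1, Hist1h2af, both were below, beside 14.2%. The other 16 overlapped. The mean was higher in Taf4a-/- for 40 of the 44 genes, beside 56.9% of all genes with such low means. Over all 61 genes, 43 had Taf4a-/- values above WT without overlap, beside 30.0% of all genes, and 2 had WT values above, beside 29.6%, with a higher mean in Taf4a-/- for 56 of the 61, beside 51.5%. The 42 low core genes together had 70.1 and 50.9 normalized counts in WT and 253 and 257 in Taf4a-/-, a ratio of 4.21. Core and linker genes together had a ratio of 4.16 over the 44 low genes, beside 3.78 for the 17 genes tested.

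The genes nearest the mean of 10 are given on both sides of it. Just above it were Hist1h2ae, Hist1h1a and Hist1h4h, described above. Just below it, Hist1h2ad had 1.75 and 1.04 normalized counts in WT (3 reads in all) and 20.6 and 15.5 in Taf4a-/-. Its ratio was 12.7, with a 95% counting interval of 4.02 to 64.7. Hist1h3e had 2.63 and 5.20 in WT and 9.79 and 18.8 in Taf4a-/-, and the annotated pseudogene Hist2h3c2-ps had 3.51 and 3.12 in WT and 18.6 and 11.1 in Taf4a-/-. Of the low H4 genes, Hist2h4 had 0 and 3.12 in WT and 11.7 and 12.2 in Taf4a-/-, and Hist1h4d had 1.75 and 4.16 in WT and 6.85 and 12.2 in Taf4a-/-.

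Most of the counts lay in genes whose annotated model extends past the stem-loop. The models of 20 genes run more than 100 bases past the stem-loop, those of 36 end within 100 bases of it, 10 of these before its last base, and 5 have no match. The 20 genes with an extended model held 91.2% of the WT and 92.6% of the Taf4a-/- clustered histone counts, and 13 of them reached a mean of 10. Among the 36 genes whose model ends near the stem-loop, 3 reached that mean (Hist1h1e, Hist1h1a and Hist1h4h). All 36 together held 3.40% of the WT and 4.05% of the Taf4a-/- counts. The ratio of Taf4a-/- to WT sums was 3.85 in the extended class and 4.51 in the other, a difference that was not tested. A longer model collects more reads, and reads past an annotated end are not counted, so this is a description of annotation and counts together. Per kilobase of exon, the median of the mean levels was 18.4 in the extended class and 7.42 in the other. The most counted genes per kilobase were Hist1h1c at 516 and 709 in WT and 2053 and 2578 in Taf4a-/-, and Hist1h2bc at 318 and 398 against 1310 and 1833. A hexamer AATAAA, which marks cleavage and polyadenylation, lay in the last 50 bases of the models of 11 genes.

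**Figure D4:**
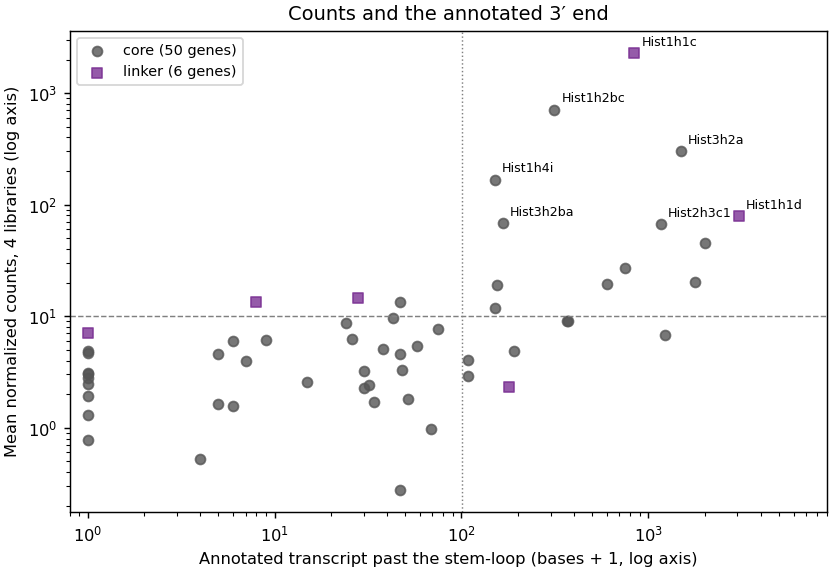
Mean normalized counts over the 4 libraries (vertical log axis) against the length of annotated transcript past the stem-loop (horizontal log axis, in bases plus 1), with a point for each of the 56 genes with a stem-loop match. Of the 20 genes to the right of the dotted line at 100 bases, 13 are above the dashed line at a mean of 10, and of the 36 to its left 3 are.

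Near-identical copies limit what single genes can show. Of all 50-base stretches of a gene's exons, a median of 54.2% occurred once in the genome (range 0% to 100%), and 26 genes, all core, were under 50%. The linker genes were between 77.8% and 100%. Among the core genes described, the share was 97.8% for Hist3h2a, 76.4% for Hist3h2ba, 59.8% for Hist1h4i, 49.2% for Hist1h2bc and 42.7% for Hist2h3c1. The low counts of many core genes are therefore uncertain, and how reads of repeated sequence were counted was not examined. The effect of repeated sequence on the sums by protein was not tested.

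A total of 10 pairs of an H2A and an H2B gene stood head to head on opposite strands, with gene starts at most 264 bases apart and 1 pair that overlapped. In the pair Hist1h2ac and Hist1h2bc, 250 bases apart, both genes rose, although Hist1h2bc had far more counts in every library. Hist2h2be and its partner Hist2h2ac were 240 bases apart, and Hist2h2ac was low, with 2.63 and 1.04 normalized counts in WT and 7.83 and 9.95 in Taf4a-/-. Hist1h2ae and Hist1h2bg, 175 bases apart, both rose. Hist3h2a faces the annotated pseudogene Hist3h2bb-ps, which had between 0 and 2.94 normalized counts, and Hist3h2ba was in none of these pairs.

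Promoter sequences from RefSeq (GRCm38.p6, 250 bases before to 50 after the start) were matched for 54 of the 61 genes, and 3 motifs were searched for on both strands, none of which contains another. TATAAA, an exact form of the TATA box, was in 59.3% of them, beside 13.6% of 32851 RefSeq promoters of the same length. The CCAAT box CCAAT was in 83.3% beside 37.4%. Matches at any position were counted. Promoters of head-to-head genes can share sequence, as those of Hist1h2ae (chr13:23571171-23571470) and Hist1h2bg (chr13:23571150-23571449) do. A match in shared sequence was counted for both genes, so the shares given here for the 3 motifs count some sequence more than once. The octamer ATTTGCAT, to which Pou2f1 (Oct-1) binds, was in 22.2%, that is in 7 H2A and 5 H2B promoters and in none of H1, H3 or H4, beside 1.74%. CCAAT was in every H1, H2A, H2B and H3 promoter matched, and in 3 of 12 of H4. The promoters of Hist1h2ac and Hist3h2a, which rose, and of Hist3h2ba, which fell, are shown 5′ to 3′ on the strand of the gene, with every match to the 3 motifs, on either strand, in capitals.
Hist1h2ac: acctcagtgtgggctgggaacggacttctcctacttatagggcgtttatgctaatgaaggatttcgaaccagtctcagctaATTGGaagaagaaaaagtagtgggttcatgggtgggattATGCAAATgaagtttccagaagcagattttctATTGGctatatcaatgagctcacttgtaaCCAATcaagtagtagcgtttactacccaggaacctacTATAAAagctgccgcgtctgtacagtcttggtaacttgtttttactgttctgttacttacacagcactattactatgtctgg
Hist3h2a: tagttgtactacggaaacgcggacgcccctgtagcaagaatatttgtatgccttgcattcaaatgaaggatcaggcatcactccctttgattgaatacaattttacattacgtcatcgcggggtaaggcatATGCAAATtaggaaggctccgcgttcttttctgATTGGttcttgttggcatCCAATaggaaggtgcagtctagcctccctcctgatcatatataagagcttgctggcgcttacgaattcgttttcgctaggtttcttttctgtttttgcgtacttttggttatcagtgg
Hist3h2ba: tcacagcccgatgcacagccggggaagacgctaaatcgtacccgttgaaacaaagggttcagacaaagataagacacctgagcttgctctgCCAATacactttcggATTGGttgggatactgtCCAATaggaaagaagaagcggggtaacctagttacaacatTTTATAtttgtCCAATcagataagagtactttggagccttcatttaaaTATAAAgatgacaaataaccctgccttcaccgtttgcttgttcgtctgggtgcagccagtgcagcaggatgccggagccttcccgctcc
In GRCm38.p6 they lie at chr13:23683910-23684209 on the minus strand for Hist1h2ac, and on the plus strand at chr11:58954435-58954734 for Hist3h2a and chr11:58948661-58948960 for Hist3h2ba. Hist1h2ac held all 3 motifs, Hist3h2a held CCAAT and the octamer, and Hist3h2ba held TATAAA and CCAAT. A promoter without TATAAA, such as that of Hist3h2a, may hold another form of the TATA box. A match is a description of the letters and not of binding.

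Other genes of histone supply had smaller median fold changes. Of 12 replacement and solitary histone genes tested, 2 were higher, 1 was lower (H1f0, above) and 9 were not called, beside 11.3% and 17.3% of all genes called higher and lower. Over the 12, the median log2 fold change was 0.24. H2afx, which encodes H2A.X and whose mRNA is known in stem-loop and polyadenylated forms, had 3517 and 2061 normalized counts in WT and 4900 and 5976 in Taf4a-/- (log2 fold change 1.01, limma adjusted p = 0.0338). H2afz, which encodes H2A.Z, had a log2 fold change of 0.54 (limma adjusted p = 0.0423). The clustered genes were 4.26% and 5.81% of the summed counts of the clustered and the 15 replacement genes found in WT, and 13.6% and 15.4% in Taf4a-/-. H1fnt, also listed, was not found in the table.

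Among 18 genes for histone mRNA processing and transcription, 5 were higher and 1 was lower, beside 11.3% and 17.3% of all genes tested. The median log2 fold change was 0.32. Those higher were Srrt (1.04), Upf1 (0.66) and Ncbp1 (0.66), for factors of cap binding and RNA decay, with Pou2f1 (0.58) and the cleavage factor gene Cstf2 (0.45). Lsm11, a U7 snRNP protein gene, fell by 0.60 on the log2 scale (limma adjusted p = 0.0356). Slbp, named after its values were seen, had 1562 and 1269 normalized counts in WT and 1740 and 1788 in Taf4a-/-, and was not called (log2 fold change 0.32). Of 12 histone chaperone genes, Nasp, a carrier of H1 and H3, was higher (0.89), as was Atrx (0.66), and Rbbp7, a subunit of several chromatin complexes, was lower (-0.67), with a median of 0.26. These 2 genes higher and 1 lower compare with 11.3% and 17.3% of all genes.

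Genes of DNA replication and S phase were measured beside the histone genes, which are expressed in that phase. Of 28 tested, 1 was higher, Pola1 (0.77, limma adjusted p = 0.0332), and none was lower, beside the 11.3% and 17.3% of all genes given above. Their median log2 fold change was 0.30. Their sums were 92342 and 68771 normalized counts in WT and 91466 and 98216 in Taf4a-/-, so WT replicate 1 was between the Taf4a-/- values. The median log2 difference of WT replicate 1 from WT replicate 2 over these genes was 0.45. Whether S phase has a part in the clustered histone counts was not tested. Of the 70 genes in these 4 lists, 13 were called with all libraries. With a library left out that number rose or fell with the library, as did calls over all genes and of the clustered histone genes.

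**Figure D5:**
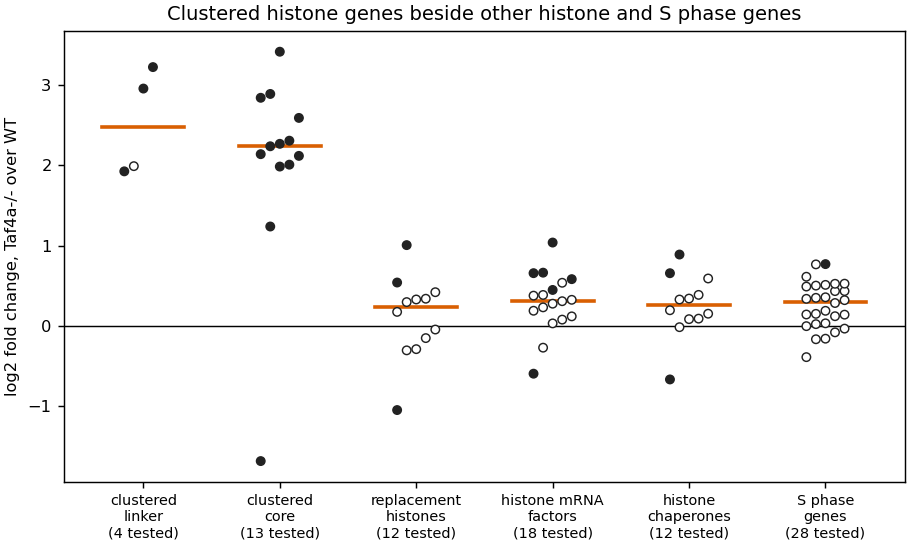
Log2 fold changes, Taf4a-/- over WT (vertical axis), of the tested clustered linker and core histone genes and of 4 lists of other genes, with a point for each gene, filled where called, and a bar at the median of each list. The medians are 2.47 for linker and 2.24 for core genes. They are 0.24, 0.32, 0.26 and 0.30 for replacement histones, histone mRNA factors, chaperones and S phase genes. Of the clustered genes shown, 2 linker and 7 core genes reached the mean of 10 only through the Taf4a-/- libraries. Among those with a WT mean of at least 10, the medians are 2.44 for linker and 2.06 for core genes.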

How the data were processed

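RNA of 2 WT and 2 Taf4a-/- cultures was sequenced. According to the submitters' processing notes the tools were CASAVA 1.8, TopHat 1.3.3, HTSeq 0.5.3p1 and DESeq, with mm9 (NCBIM37) as the genome, and the authors deposited 1 table of normalized counts per gene, written with decimal commas. Dividing each library by its value of 1 read gave whole reads for 100% of values (within 0.01). No column of another sample was present. Members were found by gene name, and the genes with a mean of 10 or more were compared on log2(value + 1) by limma 3.58.1 under R 4.3.3, using its moderated test with a trended prior and Benjamini-Hochberg adjustment. The fit was tested on simulated reads, with a single dispersion (0.00947) for all genes. Of 200 genes simulated as changed, 88% were called in the right direction, and 4.86% of calls were of unchanged genes. The changed genes were fewer than those called in the data and did not include genes near the mean of 10. The simulation therefore does not cover the scarcer histone genes tested.

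The members and lists were chosen with earlier results of these data known. Genes named are Taf4a, members called, the 4 highest members of each protein, members near the mean of 10, and up to 4 called genes of each list. Cstf2, Pou2f1 and Slbp were named after their values were seen. Annotation and stem-loops came from NCBIM37 with its GENCODE models, in which all 24637 identifiers were found, and promoters from RefSeq. Low counts carry counting error, and reads without molecular identifiers are not independent molecules. Alternatives were other pseudocounts, filters, scalings, thresholds, a replicate block and leaving out each library.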

Additional observations from a re-analysis of the deposited data

How the results depend on the processing

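No log2 fold change or sum ratio of the clustered histone genes changed sign, whereas the median over all genes did with quantile normalization (-0.01 to 0.11), equal library totals (0.05) and no filter (0.02). The 16 clustered histone genes called became 8 with a mean of at least 50 (core 6 in place of 13) and 7 at an adjusted p under 0.01 (core 5), and ranged from 9 to 17 when a library was left out (core 6 to 14, linker 2 to 4). Fewer genes were tested with the higher mean, and leaving out a library leaves a genotype with 1 sample, assumed to vary like the other genotype. Without a variance trend 14 of 17 were called, beside 856 genes higher and 1741 lower of all 16926. The 13 other genes of histone supply and S phase became 2 without a variance trend, 2 at an adjusted p under 0.01, and 2 to 35 without a library, for causes not tested, and these alternatives for them were chosen after seeing the data. The median log2 fold change of the tested histone genes, 2.24, became 1.63 with a pseudocount of 10 and 2.87 with quantile normalization. The log2 ratio of linker sums, 1.95, was 2.78 without Hist1h1c. Without a filter on low counts, 61 clustered histone genes were tested and 20 were called. Over all genes, 1721 were then higher and 2836 lower of 24637. The replicate numbers do not pair the libraries (correlation of same-numbered deviations 0.0118 over 16926 genes). With the replicate block 16 clustered histone genes were called, beside 1536 genes higher and 2657 lower of all tested. With limma's voom on the recovered reads, added after the data were seen, 16 were called as well, beside 1813 genes higher and 2753 lower. For single genes, 196 values kept their side of the threshold, 28 lost a call and 2 (both Hist1h1e) gained one. The planned negative binomial count tests were not run. Depth limits the 44 low genes.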
